A study of Mus musculus with 6 samples.

Results

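The MHC class II chains, the invariant chain Cd74 and the transactivator Ciita were followed in 6 mouse osteosarcomas profiled by RNA sequencing. The 8 genes were chosen by name and are 8 of the 56196 genes counted: H2-Aa, H2-Ab1, H2-Eb1, H2-DMa, H2-DMb1, H2-Oa, Cd74 and Ciita. All 6 tumours came from Osx1-Cre;Rb1lox/lox;p53lox/lox mice, in which a Cre under the promoter of Osx1 (also called Sp7), a regulator of early osteoblasts, cuts floxed Rb1 and p53. In 3 of them no further gene was targeted (double knockout, DKO), and 3 also carried SKP2-/- (triple knockout, TKO). SKP2 selects cell cycle inhibitors for ubiquitination and degradation. In each group replicate 1 was male and replicates 2 and 3 were female. RNA was taken from bulk tumour tissue, and the labels give no age. Each library has a code of its own in its title, without a statement that each tumour is from its own animal, and the p-values rest on the spread among these 6 tumours.

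MHC class II molecules present peptides from endosomes to CD4 T cells. An alpha and a beta chain pair in the endoplasmic reticulum around the invariant chain, which blocks the groove and routes the complex to endosomes. There the invariant chain is cut down to a short fragment, and H2-DM exchanges that fragment for peptide while H2-O restrains H2-DM. CIITA does not bind DNA itself but is recruited by a complex of RFX, NF-Y and CREB proteins on the promoters of these genes, and its own transcription restricts class II mainly to dendritic cells, B cells and macrophages, or to cells exposed to interferon gamma.

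The libraries held 17063231 to 22488819 gene counts. Skp2 had 20, 64 and 46 counts in DKO1 to DKO3 and 0 in each TKO library, as labelled. The floxed genes kept counts in every library, which does not check a deletion of part of a gene: Rb1 was at 17.9 to 22.4 CPM (counts-per-million of scaled library size) in DKO and 44.7 to 91.4 CPM in TKO, and Trp53 at 6.01 to 7.34 and 8.43 to 37.6 CPM. TKO1 was less like TKO2 and TKO3 than these were like each other: its log2 CPM correlated across genes at 0.830 with TKO2 and 0.805 with TKO3, against 0.915 between the latter and 0.933 to 0.954 among the DKO tumours. Osteoblast markers were uneven. Runx2 was at 83.0 to 96.8 CPM in DKO and 58.2, 136 and 241 CPM in TKO1 to TKO3. Spp1, which encodes osteopontin, was at 250 to 1607 CPM in DKO and 2901, 1196 and 4831 CPM in TKO. The collagen gene Col1a1 had 5019 counts in TKO1, against 167554 to 236098 in DKO and 626881 and 527774 in TKO2 and TKO3. Col1a2 was at 1109 CPM in TKO1 and at 5298 CPM or more in every other tumour. The counts of Alpl were 176, 15 and 304 in DKO and 2, 31634 and 40108 in TKO. Those of Ibsp were 459, 0 and 0 in DKO and 0, 8088 and 76573 in TKO. The counts of Sp7 were 160, 0 and 7 in DKO and 0, 4280 and 8501 in TKO, and those of Bglap, which encodes osteocalcin, were 0, 3 and 4 in DKO and 9, 4988 and 3009 in TKO, so that Bglap was near absent in the DKO tumours and TKO1, and Sp7 in DKO2, DKO3 and TKO1. Most markers of leukocytes, blood and vessels were low or near absent in the DKO libraries. Ptprc, which encodes CD45, had 0, 3 and 0 counts there and 501, 1971 and 1732 in TKO. The vessel marker Emcn had 0 in DKO and 183, 852 and 580 in TKO. Exceptions included the vessel gene Vwf, at 78.0, 4.38 and 43.7 CPM in DKO and 8.31, 60.4 and 9.75 CPM in TKO. Another was the macrophage gene Cd68, at 5.46, 121 and 90.5 CPM in DKO and 55.8, 275 and 292 CPM in TKO. Because most of these markers differed, genotype and cell content cannot be told apart in any difference between the groups.

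The class II genes were more abundant in TKO tumours. Of the 8 genes, 7 had enough counts to be tested and 4 were higher in TKO at an adjusted p under 0.05 by edgeR's quasi-likelihood test: H2-Aa, H2-Ab1, H2-Eb1 and Cd74. Over all 15361 genes tested, 4.89% were called higher and 2.47% lower. None of the 7 tested members was lower. An unadjusted p under 0.05 was found for 6 of the 7, and for 3843 of the 15361 genes in either direction. In 6 of the 7 tested members every TKO tumour lay above every DKO tumour, as in 17.3% of all genes tested, while 15.6% of all genes lay wholly below. H2-DMb1 was the exception. The median log2 fold change of the tested members was 4.94, beside 0.09 over all genes. H2-Aa, H2-Eb1 and Ciita passed the count filter through their TKO libraries, and their difference is partly built into that filter. In bulk tissue, fewer cells of a type and less RNA per cell cannot be told apart.

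**Figure D1:**
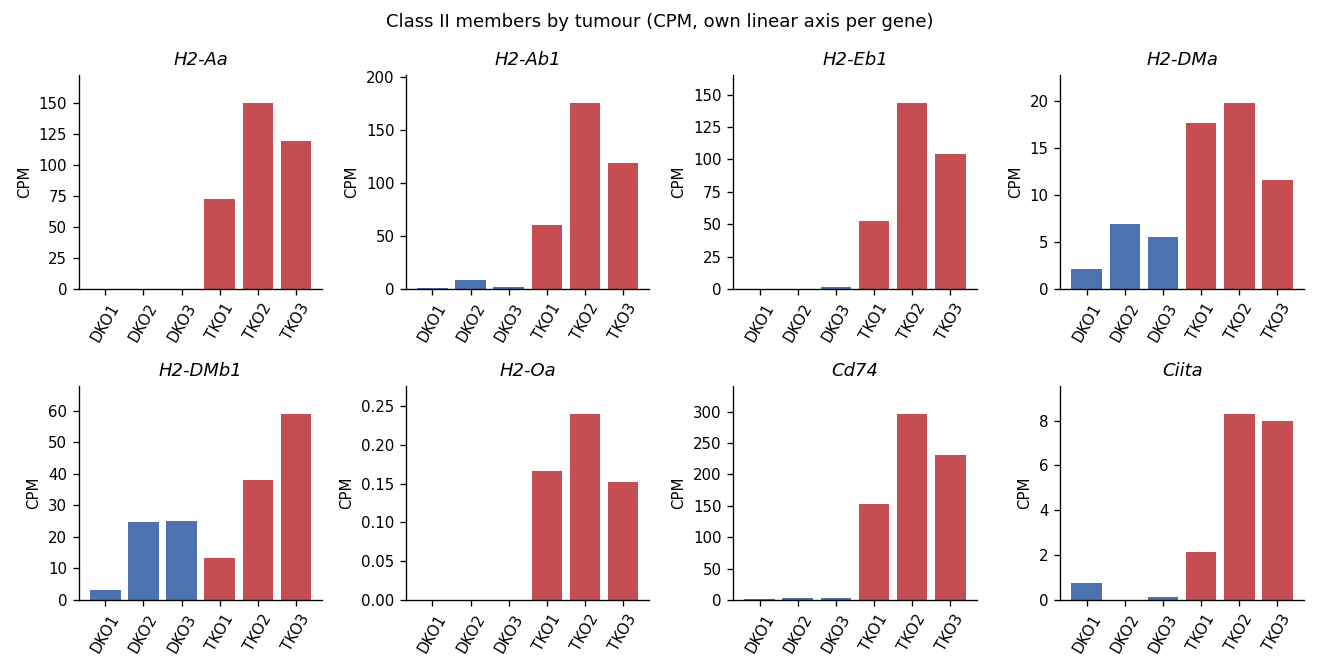
Level of each of the 8 genes in every tumour, in counts-per-million (CPM) on a linear axis of its own, with 1 bar per library, DKO in blue and TKO in red. The 3 TKO bars exceed the 3 DKO bars in each panel except H2-DMb1, where TKO1 (13.5 CPM) lies below DKO2 and DKO3.

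H2-Aa (ENSMUSG00000036594.15, chromosome 17, 34282744 to 34287823, GRCm38, minus strand) encodes the alpha chain of I-A. It was not detected in DKO, with 0 counts in each of the 3 libraries, and 1751, 3119 and 2345 counts in the TKO libraries. The TKO levels were 72.7, 149.9 and 119 CPM (mean 114 ± 38.8, SD, n = 3). A count of 0 allows up to 0.149 to 0.177 CPM in a DKO library. The groups were thus wholly apart, and H2-Aa was at least 2112-fold higher in TKO, computed against 3 counts over the DKO group, with an adjusted p of 0.0111 by edgeR's quasi-likelihood test. That call was lost without DKO2 (adjusted p = 0.0535) or DKO3 (0.0545), when 2 and 0 genes of the whole transcriptome were called higher.

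H2-Ab1 (ENSMUSG00000073421.6, chromosome 17, 34257689 to 34269419, plus strand) encodes the beta chain that pairs with H2-Aa. Its level was 0.992, 8.40 and 2.13 CPM in DKO1 to DKO3 and 60.4, 175.7 and 118.7 CPM in TKO1 to TKO3. DKO2 held most of the DKO signal, and still lay below every TKO tumour. From 3.84 ± 3.99 to 118.3 ± 57.6 CPM (SD, n = 3), H2-Ab1 was 30.8-fold higher in TKO (log2 fold change 4.94, SE 0.91, adjusted p = 0.0294 by edgeR's quasi-likelihood test). The DKO tumours therefore held 20, 165 and 36 reads of the beta chain beside 0 of its alpha chain partner. Without DKO1, DKO2, DKO3, TKO2 or TKO3 the adjusted p of H2-Ab1 was 0.0583 to 0.119, and without DKO2 its log2 fold change was 6.22.

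H2-Eb1 (ENSMUSG00000060586.11, chromosome 17, 34305867 to 34316674, plus strand) encodes the beta chain of I-E. It had 0, 0 and 25 counts in DKO, so that DKO3 alone held any, and 1261, 2991 and 2046 counts in TKO. The level rose from 0.493 ± 0.854 to 100 ± 45.8 CPM (SD, n = 3), with a log2 fold change of 7.70 (SE 1.58, adjusted p = 0.0359 by edgeR's quasi-likelihood test). DKO3 sets the size of this fold, since the fitted log2 fold change was 14.02 without it (adjusted p = 0.0545). Without DKO1, DKO2, TKO2 or TKO3 it was 7.08 to 7.68 (adjusted p = 0.0753 to 0.115), and when every gene with a count was tested the adjusted p was 0.156. H2-Ea-ps, the alpha chain gene of I-E and a polymorphic pseudogene in this annotation, was listed at 0 in all 6 libraries.

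The promoters of the chains were read for the elements that the RFX and NF-Y proteins bind, an X box followed by a Y box. RefSeq windows of 300 bases (GRCm38.p6, from 250 before to 50 after each start) were found for 5 of the 7 genes searched, in 6 windows. H2-Ab1 and Ciita had no match, and Cd74 was not searched. An X box written as GCAACA or ACAGATG and followed on the same strand by ATTGG after 10 to 40 bases was present in 1 of the 6 windows (H2-Oa), on either strand of 0.557% of 32851 windows, and ATTGG alone in 37.4%. With the X box written as GNAAC, a pattern chosen after these windows were seen, the pair was present in the windows of H2-Oa, H2-DMb1, H2-Aa and H2-Eb1, in neither of the H2-DMa windows, and in 4.87% of all. The 3 stretches that end before the first annotated exon or, in H2-Oa, at its first base are printed here to show the shared spacing, 5′ to 3′ on the strand of the gene, with GCAAC and ATTGG in capitals.
H2-Aa, chr17:34287855-34287916, minus strand: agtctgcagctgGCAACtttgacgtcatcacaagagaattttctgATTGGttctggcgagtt
H2-Eb1, chr17:34305764-34305824, plus strand: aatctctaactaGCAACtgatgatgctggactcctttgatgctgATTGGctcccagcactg
H2-Oa, chr17:34092291-34092340, plus strand: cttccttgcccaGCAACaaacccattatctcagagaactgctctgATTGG
The capitals are separated by 28 bases in H2-Aa, 27 in H2-Eb1 and 28 in H2-Oa, and the second run ends 43, 54 and 38 bases before the RefSeq start. The H2-DMb1 pair (GTAAC, 28 bases apart) ends 56 bases before its start. A match is a description of these letters and shows no binding.

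Neither of the 2 genes of H2-DM, the peptide exchange factor, passed the test. H2-DMa (ENSMUSG00000037649.10, chromosome 17, 34119541 to 34139101, plus strand) encodes its alpha chain and was present in all 6 tumours, at 2.13, 6.92 and 5.56 CPM in DKO and 17.7, 19.8 and 11.6 CPM in TKO. The groups did not overlap, but the difference between 4.87 ± 2.47 and 16.4 ± 4.23 CPM (SD, n = 3) did not pass (log2 fold change 1.75, SE 0.55, adjusted p = 0.106 by edgeR's quasi-likelihood test). By DESeq2 it did (adjusted p = 0.0206). Reads of H2-DMa can be shared with Brd2 on the opposite strand, which covers 10.4% of its exon bases.

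H2-DMb1 (ENSMUSG00000079547.4, chromosome 17, 34153072 to 34160230, plus strand) encodes a beta chain of H2-DM. Its level was 3.13, 24.9 and 25.1 CPM in DKO1 to DKO3 and 13.5, 38.1 and 59.2 CPM in TKO1 to TKO3. Replicate 1, the only male, was the lowest in each group, and the groups overlapped. The means, 17.7 ± 12.6 and 36.9 ± 22.9 CPM (SD, n = 3), were not separated beyond their spread (log2 fold change 1.06, SE 0.83, adjusted p = 0.472 by edgeR's quasi-likelihood test). Reads that match both H2-DMb1 and its close copy H2-DMb2 are left out of the counts, so either can be counted low.

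H2-Oa (ENSMUSG00000024334.9, chromosome 17, 34092340 to 34095234, plus strand) encodes the alpha chain of H2-O, the H2-DM inhibitor that is best known in B cells. It had 0 counts in each DKO library and 4, 5 and 3 counts in TKO1 to TKO3, too few to be tested. The TKO levels were 0.166, 0.240 and 0.152 CPM, at or a little above the limit that a count of 0 allows there (0.125 to 0.152 CPM). Over the group, TKO was at least 3.51-fold higher against 3 counts. Another gene, BC051537, covers 22.8% of its exon bases.

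The other class II chains were sparse. Of the 4 listed (H2-DMb2, H2-Ob, H2-Eb2 and H2-Ea-ps), 1 could be tested and it was higher. H2-DMb2, the other beta chain gene of H2-DM, had 0, 0 and 1 counts in DKO and 86, 62 and 22 in TKO, all TKO libraries above all DKO libraries. Its ratio of 149 (exact 95% counting interval 26.4 to 5930) came with an adjusted p of 0.0243 by edgeR's quasi-likelihood test, and of 0.0605 to 0.108 without DKO1, DKO2, DKO3 or TKO2. H2-Ob, the beta chain of H2-O, had 0 counts in DKO and 2, 28 and 6 in TKO (at least 10.5-fold higher). For H2-Eb2 the counts were 0 in DKO and 3, 11 and 3 in TKO (at least 4.98-fold).

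Cd74 (ENSMUSG00000024610.15, chromosome 18, 60803848 to 60812652, GRCm38, plus strand), which encodes the invariant chain, was the most abundant of the 8 genes in TKO. Its level was 1.29, 3.41 and 2.72 CPM in DKO1 to DKO3 and 152.5, 296.8 and 230.1 CPM in TKO1 to TKO3. The lowest TKO tumour lay far above the highest DKO tumour. From 2.47 ± 1.08 to 226.5 ± 72.2 CPM (SD, n = 3), the transcript was 91.5-fold higher in TKO (log2 fold change 6.51, SE 0.54, adjusted p = 0.0111 by edgeR's quasi-likelihood test). Unlike H2-Aa, Cd74 was detected in every DKO library, with 26, 67 and 46 counts. Its adjusted p was 0.0535 without DKO2 and 0.0548 without DKO3. Cd74 was the only member called when genes under 1 CPM throughout either group were left out, a setting that removed H2-Aa, H2-Oa and Ciita.

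Ciita (ENSMUSG00000022504.10, chromosome 16, 10480059 to 10528418, plus strand) encodes the transactivator of these genes. It had 15, 0 and 2 counts in DKO1 to DKO3 and 51, 173 and 157 in TKO1 to TKO3, or 0.744, 0 and 0.118 CPM against 2.12, 8.31 and 7.98 CPM. All TKO tumours lay above all DKO tumours, with TKO1 the lowest of the first and DKO1 the highest of the second. The means were 0.288 ± 0.400 and 6.14 ± 3.48 CPM (SD, n = 3), a 21.3-fold ratio that did not pass (log2 fold change 4.37, SE 1.33, adjusted p = 0.101 by edgeR's quasi-likelihood test). It passed by DESeq2 (adjusted p = 0.00101) and with the counts of 1 strand in place of both (0.0303). DKO1, with the most Ciita of the DKO tumours, had the least H2-Ab1, H2-DMa, H2-DMb1 and Cd74 of the 3.

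Per kilobase of exon, the order of the members differed between the groups. In TKO, Cd74 led with 134.9 ± 43.0 CPM per kilobase (SD, n = 3), and was the highest of the 8 in each TKO tumour. Then came H2-Eb1 (51.5 ± 23.6), H2-Ab1 (46.1 ± 22.4), H2-Aa (29.99 ± 10.2) and H2-DMb1 (22.0 ± 13.6), neighbours whose ranges over the tumours overlapped. Within each TKO tumour, however, H2-Eb1 exceeded H2-Ab1 and H2-Ab1 exceeded H2-Aa. This order depends on the exon lengths used, 3798 bases for H2-Aa, 2568 for H2-Ab1 and 1944 for H2-Eb1. In CPM, H2-Aa and H2-Ab1 both exceeded H2-Eb1 in each TKO tumour. H2-Aa also exceeded H2-Ab1 in TKO1 (72.7 against 60.4 CPM) and slightly in TKO3 (119.1 against 118.7 CPM). H2-DMa (4.75 ± 1.23), Ciita (0.644 ± 0.365) and H2-Oa (0.132 ± 0.0336) followed. In DKO the leading member was H2-DMb1 at 10.5 ± 7.52 CPM per kilobase, ahead of H2-Ab1 (1.496 ± 1.55), Cd74 (1.47 ± 0.644) and H2-DMa (1.41 ± 0.716), which lay within each other's spread. H2-Eb1 (0.254 ± 0.439) and Ciita (0.0302 ± 0.0420) were lower still.

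The make-up of the class II transcripts also differed. The summed level of the 8 genes was 8.29, 43.6 and 37.2 CPM in DKO1 to DKO3 and 371.4, 832.5 and 650.8 CPM in TKO1 to TKO3. The 2 H2-DM genes made up 63.5, 72.9 and 82.6% of that sum in DKO, against 8.37, 6.96 and 10.9% in TKO. The 3 classical chains made up 11.98, 19.3 and 9.71% in DKO and 49.9, 56.4 and 52.5% in TKO, and Cd74 15.6, 7.82 and 7.33% against 41.1, 35.7 and 35.4%. In each of these shares the groups did not overlap. The shares are a description, with no test.

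**Figure D2:**
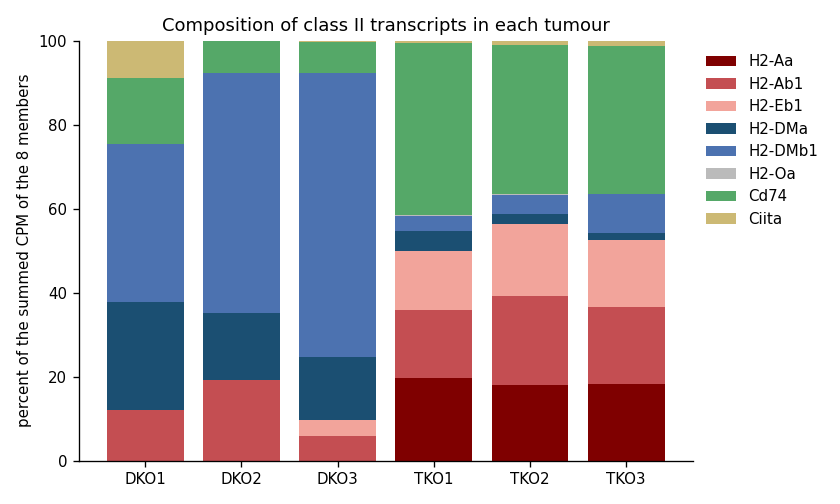
Share of each of the 8 genes in their summed CPM, as stacked bars of 100 percent, with 1 bar per tumour. H2-DMa and H2-DMb1 take 63.5 to 82.6% of the DKO bars and 6.96 to 10.9% of the TKO bars, where the classical chains and Cd74 take most of the height.

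Within TKO the ratios between the classical chains were steadier than their levels. From the lowest to the highest TKO tumour, H2-Aa varied 2.06-fold, H2-Ab1 2.91-fold, H2-Eb1 2.75-fold and Cd74 1.95-fold. Per kilobase, H2-Eb1 stood at 1.145, 1.081 and 1.157 times H2-Ab1 in TKO1 to TKO3, and H2-Aa at 0.814, 0.577 and 0.679 times. The size of these ratios, though not their evenness, depends on the exon lengths used. The ratio of H2-DMb1 to H2-DMa was less even, at 1.56, 3.95 and 10.4 in TKO and 3.01, 7.38 and 9.27 in DKO. Across the 6 tumours, and as a description in which the group difference is included, the log2 CPM of Cd74 correlated at 0.99 with the mean of the other tested members, H2-Aa and H2-Oa at 0.98, H2-Eb1 at 0.96, H2-Ab1 at 0.95, H2-DMa at 0.88, Ciita at 0.84 and H2-DMb1 at 0.58.

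Around the members, 78 other genes of the pathway were listed, of which 61 were tested. In TKO 11 were higher, 2 were lower and 48 did not pass, beside the 4.89% higher and 2.47% lower over all genes. Of the 11, H2-DMb2, Spi1, Ctss, Cd83, Cd86, Cd4 and Cxcr4 passed the count filter through their TKO libraries, and 1 gene, Lag3, was called higher when only genes with 1 CPM in each group were tested. The median log2 fold change of the 61 was 0.45. Each of these 13 calls was lost without at least 1 library, with adjusted p-values of 0.0525 to 0.173 by edgeR's quasi-likelihood test where lost.

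**Figure D3:**
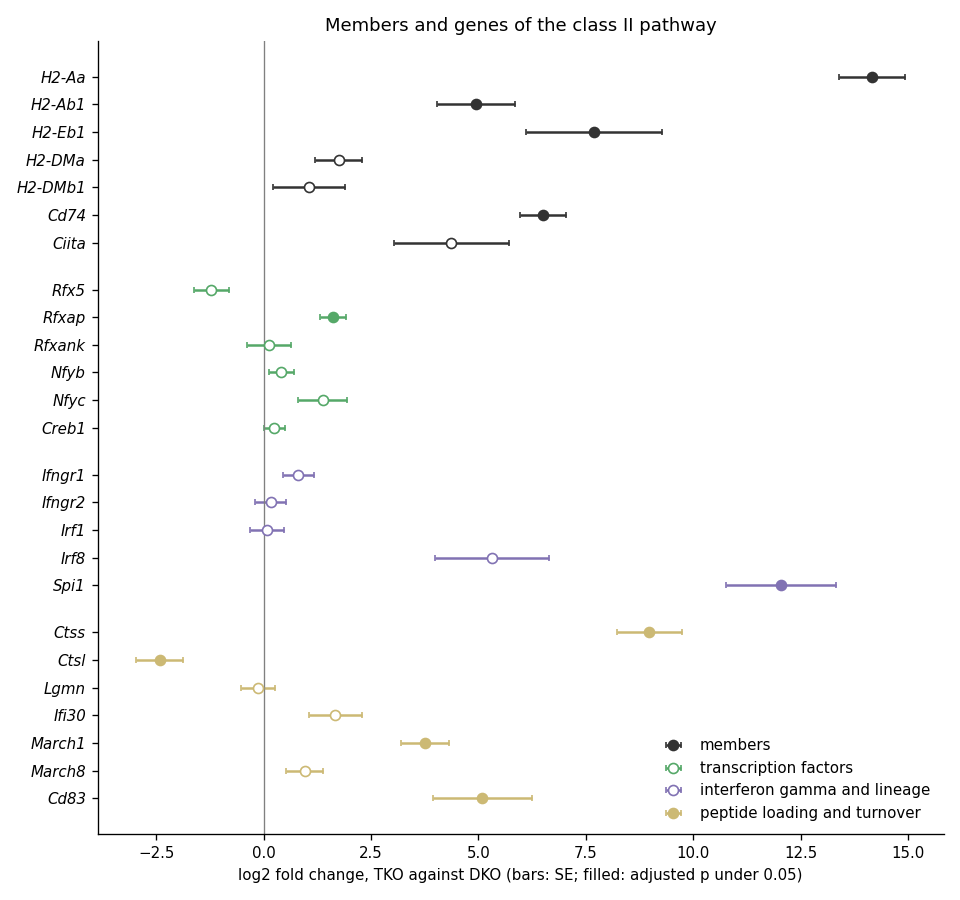
Log2 fold change of TKO against DKO with its SE (bars) for the 7 tested members and for pathway genes by role, filled where the adjusted p was under 0.05. The members lie between 1.06 (H2-DMb1) and 14.17 (H2-Aa), and the RFX, NF-Y and CREB genes between -1.22 (Rfx5) and 1.61 (Rfxap).

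Of the 7 genes for the DNA-binding partners through which CIITA acts, 6 were tested and 1 was higher in TKO: Rfxap, an RFX subunit, at 12.3, 14.5 and 16.3 CPM in DKO and 43.9, 52.4 and 35.5 CPM in TKO (log2 fold change 1.61, SE 0.30, adjusted p = 0.0291 by edgeR's quasi-likelihood test; 0.0532 to 0.119 without DKO1, DKO2, DKO3, TKO2 or TKO3). Rfx5, the large RFX subunit, was at 16.5, 41.2 and 37.8 CPM in DKO and 12.3, 13.8 and 14.9 CPM in TKO, so that every TKO tumour was below every DKO tumour, without passing (log2 fold change -1.22, SE 0.41, adjusted p = 0.123). Rfxank, the third RFX subunit, had 7.20 ± 1.40 CPM in DKO and 7.89 ± 3.68 CPM in TKO (SD, n = 3, adjusted p = 0.9004 by edgeR). Of the NF-Y subunits, Nfyb (adjusted p = 0.412) and Nfyc (0.200) did not pass and Nfya was listed at 0 in all 6 libraries. Whether that 0 comes from the counting or from the tissue was not tested, so it is not read as absence of Nfya. Creb1 did not pass either (0.558).

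Of the 11 regulators of Ciita tested, 1 passed: Spi1, which encodes the myeloid and B cell factor PU.1, had 0, 0 and 1 counts in DKO and 528, 3274 and 2466 in TKO (log2 fold change 12.05, SE 1.28, adjusted p = 0.0112 by edgeR's quasi-likelihood test; 0.0593 to 0.0641 without DKO1, DKO2 or DKO3). Irf8, a partner of PU.1, had 0, 40 and 6 counts in DKO and 462, 792 and 763 in TKO, without overlap, and did not pass (log2 fold change 5.31, adjusted p = 0.0607; 3.5e-05 by DESeq2). On the interferon gamma side, Ifng had 0 counts in all 6 libraries, which allows up to 0.125 to 0.177 CPM. Irf1, an interferon-induced factor that acts on Ciita, was at 38.7 ± 14.7 and 40.9 ± 11.5 CPM (SD, n = 3, adjusted p = 0.923 by edgeR), with overlapping groups.

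Of 10 genes of endosomal processing tested, 1 was higher and 1 lower in TKO, and 8 did not pass. Ctss encodes cathepsin S, which cuts the invariant chain in antigen-presenting cells, and was at 0.248, 0.916 and 0.177 CPM in DKO and 191, 314 and 188 CPM in TKO (log2 fold change 8.98, SE 0.76, adjusted p = 0.0111 by edgeR's quasi-likelihood test; 0.0545 without DKO3). Ctsl encodes cathepsin L, which does the same in thymic epithelium, and fell from 3658, 2283 and 2011 CPM in DKO to 773, 487 and 227 CPM in TKO (log2 fold change -2.42, SE 0.55, adjusted p = 0.0466). Neither gene's groups overlapped. The Ctsl call did not hold without DKO1, DKO2, DKO3, TKO2 or TKO3 (adjusted p = 0.0879 to 0.132) and with library totals as the only scaling (0.0515). Lgmn, which encodes the asparaginyl protease legumain, was at 511 ± 176 and 465 ± 147 CPM (SD, n = 3, adjusted p = 0.861 by edgeR). Ifi30, the lysosomal thiol reductase, was at 12.2 CPM in TKO1 and 57.6 and 60.5 CPM in TKO2 and TKO3, against 11.2 to 18.0 CPM in DKO (adjusted p = 0.151, and 0.0118 without TKO1).

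Genes that set the surface life of class II included 2 higher of 6 tested. March1, a ubiquitin ligase that drives class II off the surface, was at 1.04, 0.509 and 0.947 CPM in DKO and 11.3, 14.7 and 8.13 CPM in TKO (log2 fold change 3.76, SE 0.56, adjusted p = 0.0185 by edgeR's quasi-likelihood test). Cd83, which opposes March1, had 0, 15 and 6 counts in DKO and 242, 307 and 273 in TKO (log2 fold change 5.09, SE 1.16, adjusted p = 0.0474). So the ligase and its opponent were both higher in TKO, while the relative March8 did not pass (63.0 ± 17.6 and 122 ± 66.2 CPM, SD, n = 3, adjusted p = 0.223 by edgeR). The March1 call was lost without DKO1, DKO2 or DKO3 (0.0716 to 0.0874), and that of Cd83 without these or TKO2 or TKO3 (0.0627 to 0.173) and with library totals (0.0504).

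Among costimulatory genes 1 of 5 tested was higher. Cd86 had 0, 0 and 2 counts in DKO and 76, 228 and 154 in TKO, a ratio of 201 (exact 95% counting interval 55.4 to 1665; adjusted p = 0.0245 by edgeR's quasi-likelihood test, and 0.0592 to 0.105 without DKO1, DKO2, DKO3, TKO2 or TKO3). Its relative Cd80 was detected in every tumour, at 2.25 to 2.83 CPM in DKO and 3.00 to 4.47 CPM in TKO (adjusted p = 0.542). Cd40, the receptor through which T cells activate presenting cells, had 9.68, 22.8 and 4.44 CPM in DKO and 0.249, 15.1 and 11.7 CPM in TKO, with overlapping groups (adjusted p = 0.850).

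On the T cell side, 2 of 4 tested genes were higher, and both encode proteins that bind class II. Cd4 had 0, 0 and 2 counts in DKO and 16, 218 and 228 in TKO, with TKO1 far below the other TKO tumours (log2 fold change 7.47, SE 1.63, adjusted p = 0.0426 by edgeR's quasi-likelihood test; 0.0905 to 0.155 without DKO1, DKO2, DKO3, TKO2 or TKO3, and 0.0762 by limma-voom). Lag3 was at 1.98, 1.53 and 1.83 CPM in DKO and 18.2, 11.4 and 14.2 CPM in TKO (log2 fold change 3.03, SE 0.45, adjusted p = 0.0182; 0.0525 to 0.0904 without DKO1, DKO2, DKO3 or TKO3). T cell receptor genes were sparse: Trac had 0 counts in each DKO library and 8, 33 and 17 in TKO, and Cd3e 0, 2 and 0 in DKO and 2, 5 and 4 in TKO.

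CD74 is also a surface receptor for the cytokine MIF, with CD44 and CXCR4 as partners. While Cd74 was higher in TKO, Mif was lower, at 537, 453 and 712 CPM in DKO and 246, 183 and 126 CPM in TKO (log2 fold change -1.62, SE 0.36, adjusted p = 0.0448 by edgeR's quasi-likelihood test). This call did not hold without DKO1, DKO2, DKO3, TKO2 or TKO3 (0.103 to 0.171) and with library totals (0.0539). Cxcr4 was at 0.199, 0.407 and 0.0592 CPM in DKO and 65.1, 56.4 and 23.4 CPM in TKO (log2 fold change 7.71, SE 0.79, adjusted p = 0.0111; 0.0556 to 0.0593 without DKO1, DKO2 or DKO3). Cd44 was lower in every TKO tumour than in any DKO tumour (633 ± 202 and 295 ± 112 CPM, SD, n = 3) but did not pass (adjusted p = 0.163 by edgeR).

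Most genes between and around the class II chains on chromosome 17 did not pass. Of 13 neighbours tested 1 was higher, Notch4, an endothelial Notch receptor, at 0.645, 3.31 and 2.07 CPM in DKO and 7.73, 65.1 and 62.4 CPM in TKO (log2 fold change 4.49, SE 0.98, adjusted p = 0.0432 by edgeR's quasi-likelihood test; 0.0932 to 0.153 without DKO1, DKO2, DKO3, TKO2 or TKO3, and 0.127 by limma-voom). The median log2 fold change of the 13 was -0.15, beside 0.09 over all genes, of which 4.89% were called higher. Col11a2, a cartilage collagen gene, was at 1.68 to 2.98 CPM in DKO and 12.6, 199 and 2858 CPM in TKO, without overlap (adjusted p = 0.0509, and 0.00916 without TKO1), and Rxrb, a nuclear receptor gene, at 31.5 to 45.6 and 51.3 to 89.7 CPM, also without overlap (adjusted p = 0.117, and 0.0321 without TKO1). The peptide transporter and proteasome genes that lie between H2-DMb1 and H2-Ob serve class I presentation. Among them Psmb9 (adjusted p = 0.770), Psmb8 (0.548), Tap1 (0.195) and Tap2 (0.740) did not pass, and Tap1 was at 126.5 to 190 CPM in DKO and 31.7 to 109 CPM in TKO, lower in each TKO tumour. Brd2, a widely expressed bromodomain gene beside H2-DMa, was at 352 ± 56.1 and 342 ± 34.2 CPM (SD, n = 3, adjusted p = 0.940 by edgeR). In the promoter windows, the GNAAC and ATTGG pair was present in 2 of 3 windows of the other class II chains (H2-Ob and H2-Eb2) and in 0 of the 21 windows of 14 neighbours. The GNAAC pattern was chosen after the windows of the members were seen. The pair was present in only 4.87% of all windows, so 0 of 21 does not set the neighbours apart.

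**Figure D4:**
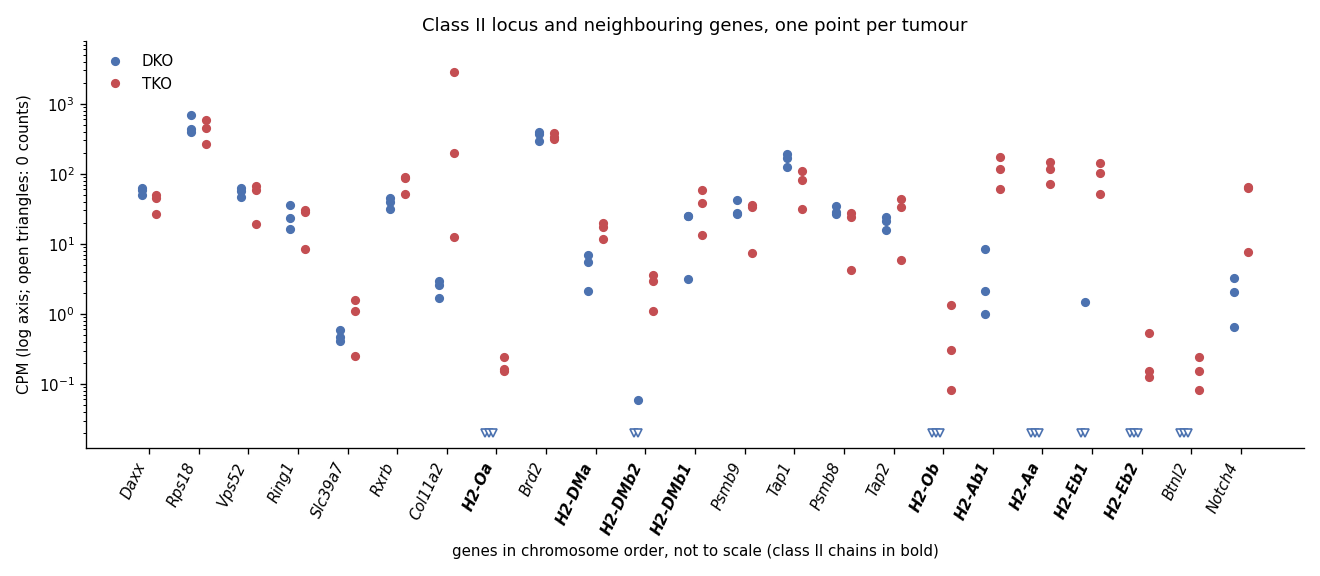
CPM on a log axis of the class II chains (bold) and their neighbours in chromosome order, not to scale, with 1 point per tumour and open triangles for 0 counts. The chains from H2-Ab1 to H2-Eb2 separate the groups, while Psmb9, Psmb8, Tap2 and Brd2 overlap.

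Leukocyte markers moved with the class II genes, and their part in the result was not tested. The 14 macrophage markers summed to 144 to 204 CPM in DKO and 1446, 3690 and 2777 CPM in TKO1 to TKO3, with 10 of 14 higher. C1qa, C1qb and C1qc, complement genes typical of tissue macrophages, were at 0 in every DKO library. The 5 pan-leukocyte markers summed to 2.55 to 6.39 CPM in DKO and 220 to 637 CPM in TKO, and all 5 were higher. Most markers called higher, in these and the other cell type lists, passed the count filter through their TKO libraries. Their difference is partly built into that filter. Relative to the macrophage sum, Cd74 was at 0.00632, 0.0193 and 0.0189 in DKO and 0.106, 0.0804 and 0.0828 in TKO, so the groups also differed in that ratio, without overlap. The sum of the 8 members over the same macrophage sum was 0.0406, 0.247 and 0.258 in DKO and 0.257, 0.226 and 0.234 in TKO, and there the groups overlapped.

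Markers of other cell types that express class II did not all move the same way. Of 14 dendritic cell markers 10 were tested and 2 were higher, Itgax and Clec10a, both at 0 in DKO. In 7 of the 14 every TKO tumour lay above every DKO tumour. Batf3 lay wholly below, with 62, 121 and 80 counts in DKO and 28, 52 and 19 in TKO. It did not pass (adjusted p = 0.172 by edgeR's quasi-likelihood test). Bst2 and Dpp4 were lower in TKO on average, with overlapping groups, and Zbtb46 did not pass (adjusted p = 0.95). The dendritic cell list summed to 380 to 407 CPM in DKO and 470 to 697 CPM in TKO, most of it from Fscn1 and Bst2. The cross-presenting cell marker Xcr1 had 33, 28 and 5 counts in TKO. B and plasma cell markers summed to 180 to 281 CPM in DKO and 230 to 903 CPM in TKO, with 5 of 7 tested higher. These 5 passed the count filter through their TKO libraries. Sdc1, a syndecan gene that plasma cells share with many other cells, made up nearly all of the DKO sum (178 to 280 CPM), and 7 of the 12 markers lay higher in every TKO tumour than in any DKO tumour. The B cell marker Ms4a1 was at 0 in DKO and had 0, 6 and 6 counts in TKO. Pax5, another B cell marker, was lower in TKO on average, with 32, 38 and 5 counts in DKO and 9, 4 and 4 in TKO. The plasma cell product Igha had 0 counts in DKO and 1522, 3803 and 2021 in TKO.

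Markers of other cell types also differed. Endothelial markers summed to 13.2 to 87.8 CPM in DKO and 168 to 857 CPM in TKO (7 of 8 higher), neutrophil markers to 1.58 to 4.42 and 15.95 to 61.9 CPM (3 of 6 tested higher), and T and NK cell markers to 1.79 to 4.38 and 3.07 to 20.3 CPM (0 of 2 tested higher, 10 of 12 at 0 in DKO). Lck made up most of that DKO sum (1.79 to 4.28 CPM), and 8 of the 12 T and NK cell markers lay higher in every TKO tumour. Vwf made up most of the endothelial sum in DKO1 and DKO3, at 78.0 and 43.7 CPM, and its groups overlapped. Skeletal muscle markers summed to 3.18 to 7.93 CPM in DKO and 308 to 8465 CPM in TKO, and erythroid markers to 0.496 to 1.27 and 88.5 to 1163 CPM, all of those tested higher in TKO.

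**Figure D5:**
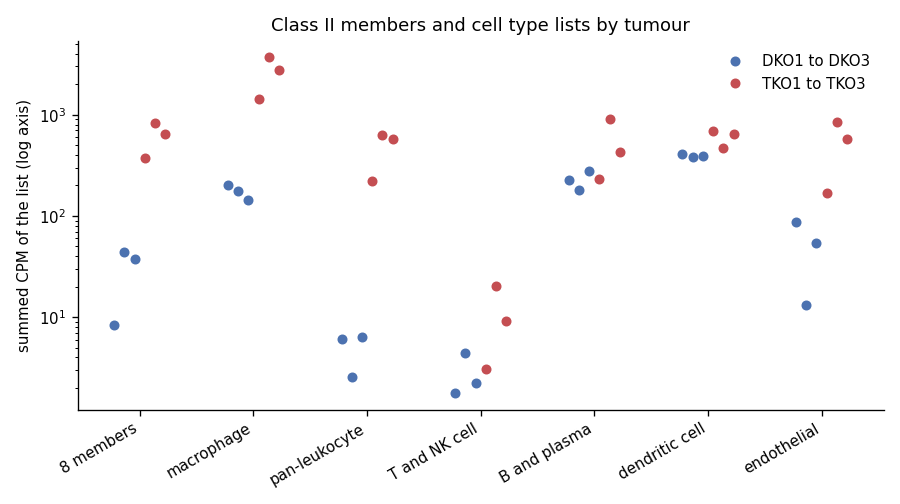
Summed CPM on a log axis of the 8 members and of cell type marker lists, with 1 point per tumour. The members (8.29 to 43.6 CPM in DKO, 371.4 to 832.5 CPM in TKO) separate the groups, as the macrophage, pan-leukocyte, dendritic cell and endothelial lists do. The sums of the B and plasma cell and T and NK cell lists overlap, with Sdc1 and Lck taking most of them in DKO.

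Many genes followed the members across the tumours. Of 13350 other genes compared, 931 had a Pearson r above 0.9 over the 6 tumours with the mean log2 CPM of the tested members, and 498 above 0.95. The group difference is part of this measure, so genes much higher in every TKO tumour tend to score high. The most alike included Pik3r6 (r = 0.998), Fgd2, Dock2, Cd93, Inpp5d, Cd180 and Galnt6 (0.996). Cd93, a surface glycoprotein gene of myeloid and endothelial cells, was at 0.397, 0.967 and 1.12 CPM in DKO and 42.9, 186 and 171 CPM in TKO. There, as in H2-Aa, Cd74 and Ciita, TKO1 was the lowest TKO tumour and TKO2 the highest.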

How the data were processed

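The authors deposited whole-number counts of reads per gene for each library, with no normalization. Per the submitters' processing notes, reads were handled with STAR 2.6.1 on mm10. Counts on both strands together were used, since the 2 strands held near-equal shares. Reads at several places or in several genes are outside these counts. IDs were matched to GENCODE M21 (GRCm38), 55154 of 56196.

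Depth was 17063231 to 22488819 counts. Genes were kept by filterByExpr (minimum count 10) and scaled by TMM, and edgeR's quasi-likelihood test (edgeR 4.0.16, R 4.3.3; robust, no covariate) set the 3 TKO against the 3 DKO libraries, with Benjamini-Hochberg adjustment over all genes and a threshold of 0.05. CPM are counts-per-million of total times TMM factor, and levels per kilobase use the union of exons. Folds against a group at 0 use 3 counts over the group. Intervals and limits cover counting error only, since reads carried no molecular identifiers. Replicates all differed by more than sampling noise.

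The members and lists were chosen with earlier results of these data known. Named genes are the 8 members, all other class II chains and RFX, NF-Y and CREB genes, 20 listed pathway genes, up to 4 more per list among those past the threshold, and the 8 most alike genes. Some genes that this rule names are left out here. Others were named after their values were seen: Cd44, Trac, Cd3e, Col11a2 and Rxrb, and the markers quoted. Likeness and correlations use log2 CPM with a prior count of 2. Alternatives were DESeq2 1.42.0, limma-voom (limma 3.58.1), other scalings, filters, strand and covariates, and leaving out each library.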

Additional observations from a re-analysis of the deposited data

How the results depend on the processing

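Under every alternative that gave a value, the 7 tested members kept a higher level in TKO, and 0 were called lower. The number of members called higher, 4 of 7, was 1 of 5 when only genes with 1 CPM in each group were tested, 3 of 8 with every gene that had a count (H2-Eb1 lost, adjusted p = 0.156), and 0 to 4 when 1 library was left out: 2 without DKO1, 0 without DKO2 or DKO3, 4 without TKO1, and 2 without TKO2 or TKO3. Where it was 0 by edgeR's quasi-likelihood test, 6 and 5 members still had an unadjusted p under 0.05. So had 2971 of 16323 and 3017 of 16553 genes there. DESeq2 called 6 members, and 10.3% of all genes as higher. The share of all genes called higher was 0.51% with 1 CPM in each group and 2.6% with every gene that had a count. It was 0.164% without DKO1, 9.61% without TKO1, 1.74% without TKO2 and 1.49% without TKO3. The pathway genes called higher, 11, were 1 with genes at 1 CPM in each group and 21 by DESeq2, and 0 to 22 with 1 library left out. The pathway genes called lower, 2, were 0 with library totals and 0 with genes at 1 CPM in each group, and 0 to 3 with 1 library left out. The cause of these changes was not tested. Leaving out a library or asking for 1 CPM in each group leaves fewer samples or genes. Library totals kept the 61 pathway genes tested and all 6 libraries, and DESeq2 tested 70 pathway genes. Over all genes, leaving out TKO1 raised the calls to 1575 higher and 810 lower, and leaving out DKO3 left 0 of each, with 3017 genes at an unadjusted p under 0.05.

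With the replicate number as a block, 3 members and 4 pathway genes were higher and 0 pathway genes lower, and H2-Eb1 was lost (adjusted p = 0.0739). Same-numbered tumours did not deviate together (correlations of -0.0167 to 0.00889), so the numbers do not pair the samples. With sex as a covariate, 4 members and 13 pathway genes were higher and 2 pathway genes lower.

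Among named genes that passed no threshold, the sign of the log2 fold change turned with 1 library left out, over ranges of -0.23 to 0.45 for Rfxank, -0.22 to 0.26 for Irf1, -0.34 to 0.17 for Lgmn, -1.03 to 0.33 for Cd40, -0.18 to 0.038 for Brd2, -0.65 to 0.11 for Psmb9 and -0.054 to 0.89 for Tap2. It also turned for Irf1 on 1 strand (-0.011) and for Tap2 by limma-voom (-0.029). Depth limits H2-Oa and Ifng in both groups and H2-Ob and H2-Eb2 in DKO, where counts lie near or under the limit of 3.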
